A study of Mus musculus with 12 samples.

Results

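The genes described here encode the proteins of the cytosolic ribosome, together with a few paralogs and relatives that carry the same symbols. They were chosen by name alone, as mouse protein-coding genes in the GENCODE M21 annotation whose symbol is Rpl or Rps followed by a digit, plus Rplp0, Rplp1, Rplp2 and Rpsa, without Rps6k kinases and without symbols in -ps. The rule gave 86 of the 37614 genes that could be counted, and 85 of them passed the filter on low counts and were tested. Of the 86, 77 are core components, 46 in the large 60S subunit (3 of them the stalk proteins Rplp0, Rplp1 and Rplp2) and 31 in the small 40S subunit. The other 9 are Rpl3l, Rpl7l1, Rpl10l, Rpl22l1, Rpl36al, Rpl39l, Rps27l, Rps27rt and Rps19bp1, of which the last is a protein that binds Rps19 and no part of the ribosome. The untested gene was Rpl10l, a retrogene known for expression in the testis, which had 1 count in 2 of the 12 libraries and none in the others.

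RNA was sequenced from 4 groups of 3 libraries each. The groups were preGM (granulocyte and macrophage precursors, sorted as Lin-Sca1-ckit+ cells without CD150, CD105, CD41 or CD16/32) with MLL-ENL, preGM from wild-type (WT) mice, haematopoietic stem cells (HSC, sorted as Lin-Sca1+ckit+CD48-CD150+ cells) with MLL-ENL, and HSC from WT mice. MLL-ENL joins the histone methyltransferase MLL to ENL, as found in human leukaemia. The strain label reads Col1a1-MLL/ENL for these mice and C57bl/6 for WT mice. Every group, WT included, was cultured in OptiMEM containing 10% serum for 48 h, and doxycycline (1 µg/ml), 10 to 50 ng/ml of SCF, 5 ng/ml of IL3 and 5 ng/ml of G-CSF were present in every culture. Since all MLL-ENL libraries received doxycycline, the fusion and the strain it is carried in cannot be told apart. Neither the age of the mice nor the origin of the replicates is given in the labels, so a p-value here covers only the spread among libraries, which may be technical.

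Each ribosome holds 1 copy of nearly every one of these proteins, and cells keep their mRNAs at similar levels. Most of these mRNAs start with a C followed by a run of pyrimidines, the terminal oligopyrimidine (TOP) tract, through which mTORC1 and Larp1 adjust their translation, and MYC is known to raise transcription of ribosome genes. In blood formation, loss of 1 copy of Rps19, Rpl5, Rpl11 and other members causes Diamond-Blackfan anaemia in humans, and free Rpl5 and Rpl11 bind Mdm2 and thereby raise p53.

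RefSeq promoters on GRCm38.p6 were used for 66 of the 86 genes. Of these, 13 (19.7%) began on a C followed by at least 4 more pyrimidines, against 823 of all 32851 promoters (2.505%), and these counts rest on where RefSeq places the start. Within 30 bases of the start, 53 of 66 (80.3%) held such a run, against 59.05% of all promoters. The letters CCGGAAG, a core of ETS factor sites, were found on either strand of the 300 bases around the start in 24 of 66 promoters (36.36%), against 2910 of 32851 (8.858%). CACGTG, the E-box that MYC binds, was found in 5 of 66 (7.576%), against 7.15% of all promoters, and TATAAA in 6 of 66 (9.091%), against 13.62%. A match is a description of the letters and not of binding. The 30 bases around the start are printed below 5′ to 3′ for 3 core genes with a clear tract and for Rps27, Rpl36a and Rpl22 with their paralogs, with the pyrimidine run that begins at the start site in capitals.
Rps18 (chr17:33955651-33955680, minus strand): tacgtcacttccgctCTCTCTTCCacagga
Rps21 (chr2:180257364-180257393, plus strand): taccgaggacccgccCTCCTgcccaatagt
Rpl38 (chr11:114668565-114668594, plus strand): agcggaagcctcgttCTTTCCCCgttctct
Rps27 (chr3:90213634-90213663, minus strand): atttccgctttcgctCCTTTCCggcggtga
Rps27rt (chr9:114982725-114982754, minus strand): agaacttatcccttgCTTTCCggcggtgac
Rps27l (chr9:66946071-66946100, plus strand): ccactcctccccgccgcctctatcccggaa
Rpl36a (chrX:134585639-134585668, plus strand): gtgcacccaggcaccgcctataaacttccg
Rpl36al (chr12:69184053-69184082, minus strand): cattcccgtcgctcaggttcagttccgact
Rpl22 (chr4:152325711-152325740, plus strand): ttcgccctgggaaaagcaatagctggccga
Rpl22l1 (chr3:28805493-28805522, plus strand): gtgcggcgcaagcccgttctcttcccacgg
Rps27 and Rps27rt, a retrogene of Rps27, shared a run of 14 bases, ctttccggcggtga, which begins at the start base in Rps27rt and 1 base after it in Rps27. A pyrimidine run at the start was found in both of these, and in neither gene of the pairs Rpl36a and Rpl36al or Rpl22 and Rpl22l1. Rps27 and Rps27l shared no run above 5 bases in these windows, nor did Rpl36a and Rpl36al, and Rpl22 and Rpl22l1 shared none above 4.

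Of the 21 genes called higher in WT preGM than in WT HSC, 17 had a promoter here, and 5 of these (29.4%) held CCGGAAG, against 24 of all 66 members. Rps21 and Rpl38 are shown as examples of where these letters lie, from 100 bases before the start to 15 bases from it onward, with CCGGAAG in capitals.
Rps21 (chr2:180257279-180257393, plus strand): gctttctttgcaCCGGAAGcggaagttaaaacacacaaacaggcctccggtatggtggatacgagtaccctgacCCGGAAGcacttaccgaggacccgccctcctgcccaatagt
Rpl38 (chr11:114668480-114668594, plus strand): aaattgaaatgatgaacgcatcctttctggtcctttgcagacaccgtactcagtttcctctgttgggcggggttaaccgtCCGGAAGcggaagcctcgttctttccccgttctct

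Total gene counts were 38466380 to 50326122 in MLL-ENL preGM, 34741936 to 44493485 in WT preGM, 18980508 to 23453501 in MLL-ENL HSC and 14529767 to 18158165 in WT HSC. Of the 86 genes, 83 had counts in all 12 libraries. Both preGM groups hold 1 library that stood apart from the others of its group on the second principal component of all genes, which held 11.04% of the variance: the score of MLL-ENL preGM replicate 1 was -75.1, while replicates 2 and 3 had -23.9 and -25.8, and that of WT preGM replicate 2 was 59.98, while replicates 1 and 3 had 10.9 and 5.52. WT HSC also spread on it, from 28.9 to 66.1. Sums over marker lists are given in CPM scaled by library size alone, while the CPM of single genes and exons also takes in the TMM factor of each library. All 10 HSC markers had counts in all 4 groups, summing to 186 to 496 CPM in MLL-ENL preGM, 64.1 to 83.7 CPM in WT preGM, 1140 to 1248 CPM in MLL-ENL HSC and 829 to 1054 CPM in WT HSC. All 12 granulocyte and monocyte markers also had counts in every group, summing to 8778 to 16232, 18748 to 22631, 314 to 362 and 337 to 473 CPM in the same order. The 6 mast cell and basophil markers summed to 239 to 276 CPM in MLL-ENL preGM, against 1093 to 1909 CPM in WT preGM, the 10 megakaryocyte and erythroid markers to 147 to 207 CPM in MLL-ENL HSC, against 714 to 811 CPM in WT HSC, and the 6 lymphoid markers to at most 4.98 CPM in any library. The 6 stromal and endothelial markers summed to 32.9 to 131 CPM in MLL-ENL preGM, 22.1 to 26.3 CPM in WT preGM, 44.0 to 50.9 CPM in MLL-ENL HSC and 22.4 to 25.8 CPM in WT HSC. These marker levels differed between the groups along with the ribosomal protein genes, and their part in the results was not tested. In bulk RNA, fewer cells of a type and less RNA per cell cannot be told apart.

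Ribosomal protein mRNA made up a large part of every library. The 86 genes took 8.81%, 16.5% and 15.9% of gene counts in MLL-ENL preGM replicates 1 to 3, and 15.7%, 21.5% and 14.9% in WT preGM. In HSC they took 14.4%, 14.3% and 14.6% with MLL-ENL, against 17.5%, 15.8% and 18.8% in WT. All MLL-ENL HSC libraries were thus below all WT HSC libraries, while the preGM groups overlapped and each held 1 library far from its others, the same libraries that stood apart over all genes. Counts in the 60S core over counts in the 40S core gave ratios of 1.28, 1.28 and 1.28 in MLL-ENL HSC and of 1.24, 1.25 and 1.22 in WT HSC. In preGM the same ratio was 1.43, 1.29 and 1.31 with MLL-ENL and 1.31, 1.13 and 1.31 in WT.

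**Figure D1:**
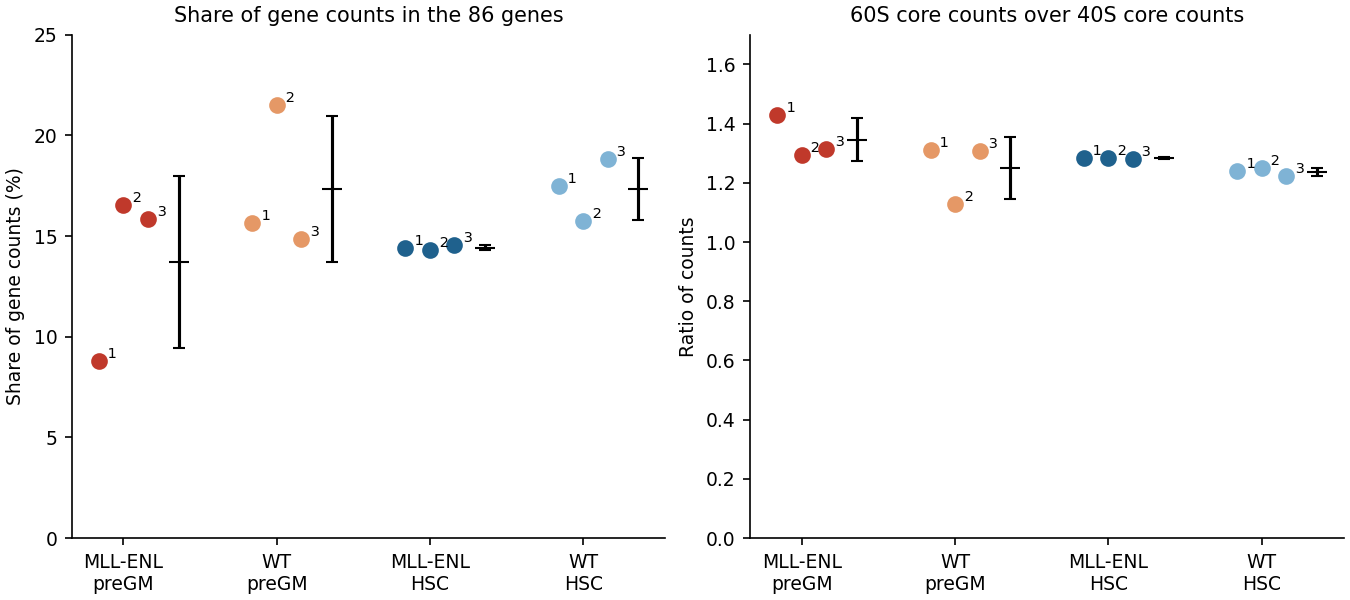
Share of gene counts in the 86 ribosomal protein genes (left, %) and ratio of counts in the 60S core to counts in the 40S core (right) in each library, numbered by replicate. Bars give the mean ± SD of 3 libraries, and MLL-ENL preGM replicate 1 (8.81%) and WT preGM replicate 2 (21.5%) lie outside the range of all other libraries (14.3% to 18.8%).

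Levels per length spanned orders of magnitude between the core and its relatives. By the authors' RPKM (reads scaled by transcript length and library size) of the principal coding transcript, averaged over 12 libraries, the 3 highest members were Rpl32 at 9671 RPKM, Rpl41, the shortest ribosomal protein, at 7512 RPKM and the 40S protein Rps14 at 7379 RPKM. Rps19, the gene first found mutated in Diamond-Blackfan anaemia, followed at 6918 RPKM. The 3 lowest tested members were relatives: Rps19bp1 at 16.6 RPKM, Rpl39l, a paralog of Rpl39 known from testis, at 0.918 RPKM and Rpl3l, a paralog of Rpl3 known from striated muscle, at 0.243 RPKM. The lowest core member was Rps2 at 480 RPKM, and 85.3% of its 31-base words also occur in other genes, so part of its reads may have been placed elsewhere.

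In MLL-ENL HSC most ribosomal protein genes lay below WT HSC by a similar factor, and 1 lay far above. Of the 85 tested genes, 81 had a negative log2 fold change for MLL-ENL against WT, with a median of -0.51 (quartiles -0.60 and -0.41) against 0.02 over all 15711 genes. In 74 of 85 genes every MLL-ENL HSC library was below every WT HSC library, against 17.0% of all genes, and in 2 (Rpl13 and Rps19bp1) every MLL-ENL library was above, against 17.8%. Under edgeR's quasi-likelihood test with Benjamini-Hochberg adjustment over all genes, fitted to all 12 libraries, 0 of 85 genes fell (3 had an unadjusted p under 0.05; DESeq2 and limma voom, which called 2.91% and 1.04% of all genes lower, also called 0) and 2 rose, where 0.929% of all genes fell and 3.19% rose. That fit takes its spread from all 4 groups, preGM with its 2 outlying libraries included. Fitted to the 6 HSC libraries alone, edgeR called 70 of 84 genes lower (8.69% of all genes) and 2 higher (8.99%), with a median of -0.49. Fitted to 10 libraries, without MLL-ENL preGM replicate 1 and WT preGM replicate 2, it called 75 of 85 lower (11.1% of all genes) and 2 higher (10.2%), with a median of -0.51. All 3 fits take this difference from the same 6 HSC libraries, so their medians were bound to be close. The number of calls differed between them. Leaving out 1 HSC library at a time gave medians from -0.60 (without WT HSC replicate 2) to -0.40 (without WT HSC replicate 3). With library size alone as the scaling, the median was -0.31 and that of all genes 0.21. Intron counts per 100 gene counts differed between the same groups, at 5.50, 5.97 and 4.81 in MLL-ENL HSC, against 4.02, 4.11 and 3.72 in WT HSC. So did the sum of 5 RNA quality genes (mitochondrial mRNAs, Malat1 and Neat1), scaled by library size alone, at 15211 to 17895 CPM, against 12244 to 13348 CPM. TMM factors, not applied to that sum, were 1.32 to 1.35 in MLL-ENL HSC and 1.12 to 1.22 in WT HSC. The part of these in the result was not tested. Other short protein-coding genes, 571 with under 1000 exon bases, had a median of -0.19, against 0.03 for the 7959 with 3000 or more, and the part of length in the results was not tested.

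The fall spread over both subunits. In the fit without the 2 outlying libraries, 43 of 46 genes of the 60S core and 28 of 31 of the 40S core were called lower (11.1% of all genes), with medians of -0.50 and -0.51. Of 18 Diamond-Blackfan anaemia genes, 16 were called lower in that fit, with a median of -0.52. The fit of 12 libraries called 0 genes lower in each of these sets, where 0.929% of all genes were. Rps19 had 3552, 3438 and 3593 CPM in MLL-ENL HSC, against 4776, 4310 and 6046 CPM in WT HSC. Rpl5 had 978, 937 and 953 CPM in MLL-ENL HSC, against 1375, 1266 and 1439 CPM in WT HSC, and Rpl11 had 1087, 1107 and 1134 CPM, against 1531, 1320 and 1788 CPM. In all 3 genes the groups did not overlap, and the MLL-ENL libraries lay closer to each other than the WT libraries did. Rps14, whose loss in humans contributes to the anaemia of the 5q- syndrome, averaged 3105 ± 60.3 CPM in MLL-ENL HSC and 4218 ± 601 CPM in WT HSC (SD, n = 3 each).

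Rpl36al, a paralog of Rpl36a, had the most negative value, 144, 128 and 155 CPM in MLL-ENL HSC, against 269, 235 and 310 CPM in WT HSC. Its log2 fold change was -0.93 ± 0.36 (SE) with an adjusted p of 0.176 in the edgeR fit of 12 libraries and -0.92 ± 0.12 with 0.000352 in that of HSC alone. Rpl29, a small 60S protein, followed with 267, 287 and 274 CPM in MLL-ENL HSC, against 525, 404 and 543 CPM in WT HSC, and a log2 fold change of -0.83 ± 0.34. Rpl22l1 averaged 301 ± 33.9 CPM in MLL-ENL HSC and 530 ± 71.4 CPM in WT HSC, and Rps27l, a paralog of Rps27 and a known p53 target, 402 ± 27.7 CPM and 692 ± 123 CPM (SD, n = 3 each). Rpl38, which in mice is needed for translation of a subset of Hox mRNAs, averaged 562 ± 28.3 CPM in MLL-ENL HSC and 951 ± 174 CPM in WT HSC.

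A few members did not share the fall or had smaller values. Rplp0, the stalk base, had 2675, 2846 and 2639 CPM in MLL-ENL HSC, against 3075, 2793 and 3207 CPM in WT HSC, so the groups overlapped, and its log2 fold change was -0.15 ± 0.30. Rpsa, also known as a laminin receptor, had -0.26 ± 0.30. Rplp1 and Rplp2, the acidic stalk proteins that recruit elongation factors, differed from Rplp0 in that both were called lower without the 2 outlying libraries, at -0.36 ± 0.11 (edgeR adjusted p 0.0328) and -0.56 ± 0.11 (0.00281). Rps10 was level, with 506, 493 and 505 CPM in MLL-ENL HSC, against 510, 405 and 582 CPM in WT HSC. Rpl7l1, which despite its name is an assembly factor of the large subunit, had -0.11 ± 0.32. Without the 2 outlying libraries, the 8 genes that edgeR did not call in this comparison were Rplp0, Rpsa, Rps10, Rpl7l1, Rps27, Rpl27a, Rpl39l and Rpl3l.

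Rpl13 (chromosome 8, 123102350 to 123105244, plus strand) was the only core gene with every MLL-ENL HSC library above every WT HSC library. It had 1957, 2264 and 2240 CPM in MLL-ENL HSC, against 552, 782 and 853 CPM in WT HSC. The groups were far apart, with a log2 fold change of 1.56 ± 0.40 (SE) and an adjusted p of 0.0385 in the edgeR fit of 12 libraries. In preGM it had 1210, 466 and 405 CPM with MLL-ENL, against 1461, 741 and 987 CPM in WT. Here the groups overlapped through MLL-ENL preGM replicate 1, and without the 2 outlying libraries edgeR gave Rpl13 a log2 fold change of -1.49 ± 0.20 (adjusted p 0.000316), the only member called for MLL-ENL against WT in preGM. The preGM response minus the HSC response was -2.18 ± 0.56 (edgeR adjusted p 0.0445) with 12 libraries and -3.06 ± 0.26 without those 2.

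The difference in Rpl13 was not even along the transcript. In exon 2 (123102653 to 123102762) the mean was 188 CPM in MLL-ENL HSC and 35.3 CPM in WT HSC, a ratio of 5.32. In exon 6 (123105044 to 123105244), the last, it was 399 CPM and 203 CPM, a ratio of 1.97. It was 3.26 in exon 1, 5.38 in exon 3, 3.30 in exon 4 and 2.55 in exon 5. Across all libraries exon 2 varied more than exon 6: it had 6971, 569 and 423 raw counts in MLL-ENL preGM, 4374, 422 and 3035 in WT preGM, 5269, 4870 and 5715 in MLL-ENL HSC and 271, 1021 and 722 in WT HSC, while exon 6 had 10402, 4277 and 4384, then 9364, 4688 and 7379, then 12038, 9784 and 12061, and last 3117, 4330 and 3861. Low and high counts of exon 2 occurred in both genotypes of preGM. Rpl13a, a separate gene of the 60S subunit, had exon ratios of 0.490 in its first exon and 0.681 to 0.816 in the other 7. Of the 31-base words of Rpl13 transcripts, 80.8% also occur in transcripts of other genes, so some reads may have been placed at the wrong copy. The 7 genes with at least 25% of those words together had 230 to 268 counts in MLL-ENL HSC and 44 to 97 counts in WT HSC, against 56885 to 63329 and 9887 to 17255 counts of Rpl13 itself. Rpl13 also overlaps the small nucleolar RNA Snord68 in 3.66% of its exon bases.

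**Figure D2:**
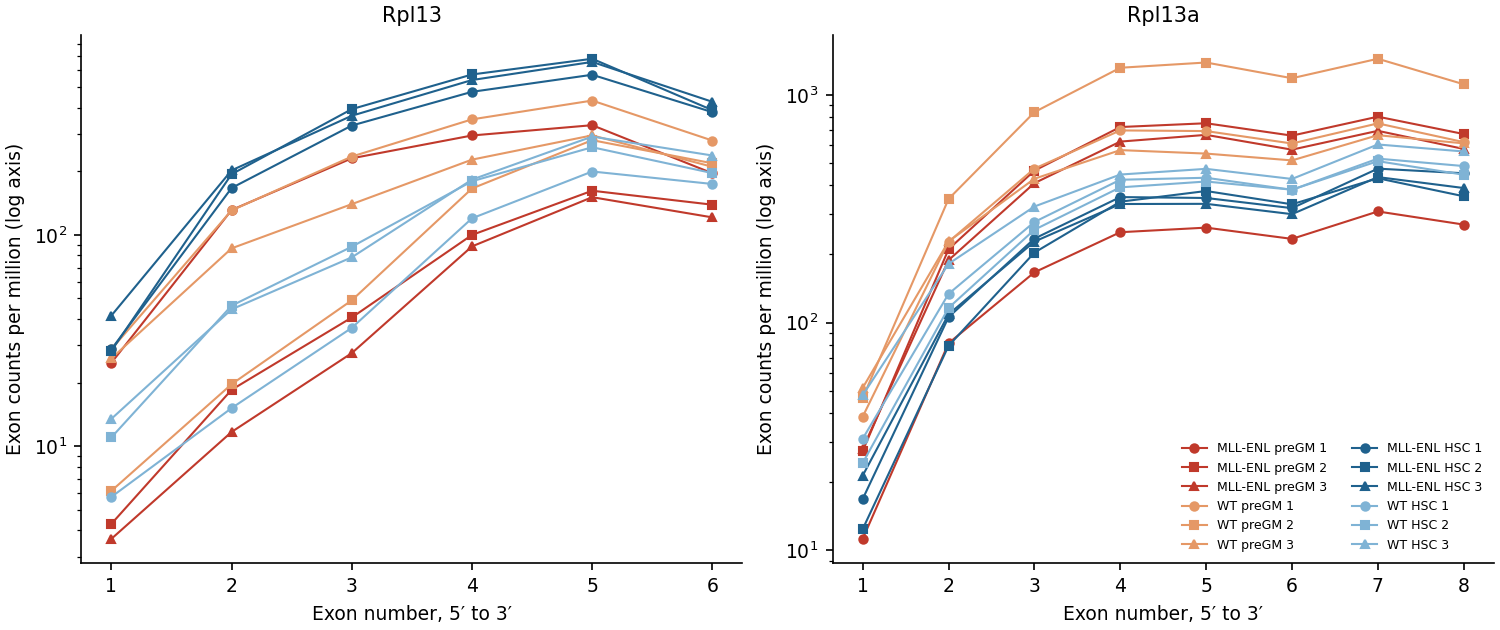
CPM (log axis) in each exon of Rpl13 (left) and Rpl13a (right), numbered 5′ to 3′, with 1 line per library, colours for the 4 groups and marker shapes for replicates. For Rpl13 the 3 MLL-ENL HSC libraries lie on top from exon 2 on, and the 12 libraries spread more in exons 2 and 3 than in exon 6; for Rpl13a the lines run nearly parallel from exon 2 on.

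Rps19bp1 (chromosome 15, 80260615 to 80264315, minus strand) was the other member that rose. It had 13.9, 21.5 and 14.8 CPM in MLL-ENL HSC, against 9.33, 6.30 and 7.26 CPM in WT HSC, and 18.4, 12.2 and 9.85 CPM in MLL-ENL preGM, against 19.3, 26.8 and 14.7 CPM in WT preGM. In HSC the groups did not overlap and the log2 fold change was 1.13 ± 0.31 (SE) with an edgeR adjusted p of 0.0498, at the edge of the threshold, and in preGM they overlapped. When any 1 of the 6 HSC libraries or WT preGM replicate 3 was left out, 0 of these 2 genes were called higher (1.55% to 2.63% of all genes). Leaving out replicate 2 or 3 of MLL-ENL preGM or replicate 1 of WT preGM left 1 called higher (2.45% to 2.88%).

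In preGM no difference between MLL-ENL and WT was detected for the class. The edgeR fit of 12 libraries called 0 of 85 genes higher (3.7% of all genes) and 0 lower (3.07%), although 25 had an unadjusted p under 0.05, all lower, and the median was -0.73 against 0.08 over all genes. DESeq2 called 2 lower, Rpl36al and Rpl39l (5.08% of all genes), and limma voom 1, Rpl39l (3.63%). That median depended on the 2 outlying libraries. Without both it was -0.02, with 39 positive and 46 negative values. Then 1 gene, Rpl13, was called lower (3.62% of all genes) and 0 higher (3.52%). These libraries held the lowest MLL-ENL and the highest WT share of this class in preGM, so leaving out both was bound to bring the groups closer. Without MLL-ENL preGM replicate 1 alone the median was -0.41, with 80 negative values. Without WT preGM replicate 2 alone it was -0.33, with 83 negative values. In 15 genes every MLL-ENL preGM library was below every WT preGM library, against 12.8% of all genes, and in 0 above, against 15.1%. Other short protein-coding genes moved too: the 571 with under 1000 exon bases had a median of -0.65 in the fit of 12 libraries, against 0.20 for those of 3000 or more. Rps19, as an example, had 1898, 5388 and 4870 CPM in MLL-ENL preGM, against 5523, 10502 and 4849 CPM in WT preGM. The low value is replicate 1 with MLL-ENL and the high one replicate 2 of WT, and the other 4 libraries lie close together.

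The same libraries decided whether the responses of the 2 cell types differed. With 12 libraries the preGM response minus the HSC response was called lower in 2 genes, Rpl13 and Rps19bp1 (-1.71 ± 0.43, edgeR adjusted p 0.0385), where 2.06% of all genes were called lower, and higher in 0 (0 also at an unadjusted p under 0.05, and 0 by DESeq2 and limma voom, which called 2.48% and 0.783% of all genes), where 1.08% were. The median was -0.20. Without the 2 libraries it was 0.50, against 0.05 over all genes, and edgeR called 34 of 85 genes higher (6.73% of all genes) and the same 2 genes lower (5.45%). The 34 comprised 18 genes of the 60S core, 13 of the 40S core and 3 relatives, among them Rpl22l1 at 0.82 ± 0.18 (adjusted p 0.00938), Rps27l at 0.81 ± 0.19 (0.0125) and Rpl35 at 0.85 ± 0.19 (0.0107). These 34 calls rest on 2 libraries in each preGM group, left after removing the lowest MLL-ENL and the highest WT library for this class. Without MLL-ENL preGM replicate 1 alone the median was 0.13, and without WT preGM replicate 2 alone it was 0.18. Each of those fits called 0 members higher (1.57% and 1.33% of all genes). The 2 genes called lower with 12 libraries became 0 when 1 library of MLL-ENL HSC, replicate 2 or 3 of MLL-ENL preGM, replicate 2 or 3 of WT HSC or replicate 1 of WT preGM was left out. Those fits called 1.29% to 1.82% of all genes lower. The count was 1 when replicate 1 of WT HSC or replicate 2 or 3 of WT preGM was left out (1.48% to 2.4% of all genes).

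The 2 outlying libraries moved the class in opposite directions, with exceptions. In MLL-ENL preGM replicate 1 the 77 core genes lay at a median of -1.35 (log2) from the mean of the other replicates, between -1.67 for Rpl35 and 1.48 for Rpl13. In WT preGM replicate 2 they lay at a median of 0.92, between -1.79 for Rpl3 and 1.22 for Rps20. Rpl3 and Rpl4, large 60S proteins that reach into the catalytic centre and the exit tunnel, were the lowest there, and of the other core genes Rpl13 (-0.70) and Rplp0 (-0.03) were also below the mean of the other replicates. Rpl3 had 4273, 1188 and 3935 CPM and Rpl4 5549, 2374 and 5515 CPM in WT preGM replicates 1 to 3. Intron counts per 100 gene counts were 3.51 in MLL-ENL preGM replicate 1, against 1.73 and 1.49 in the others of that group, and their part in the result was not tested.

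**Figure D3:**
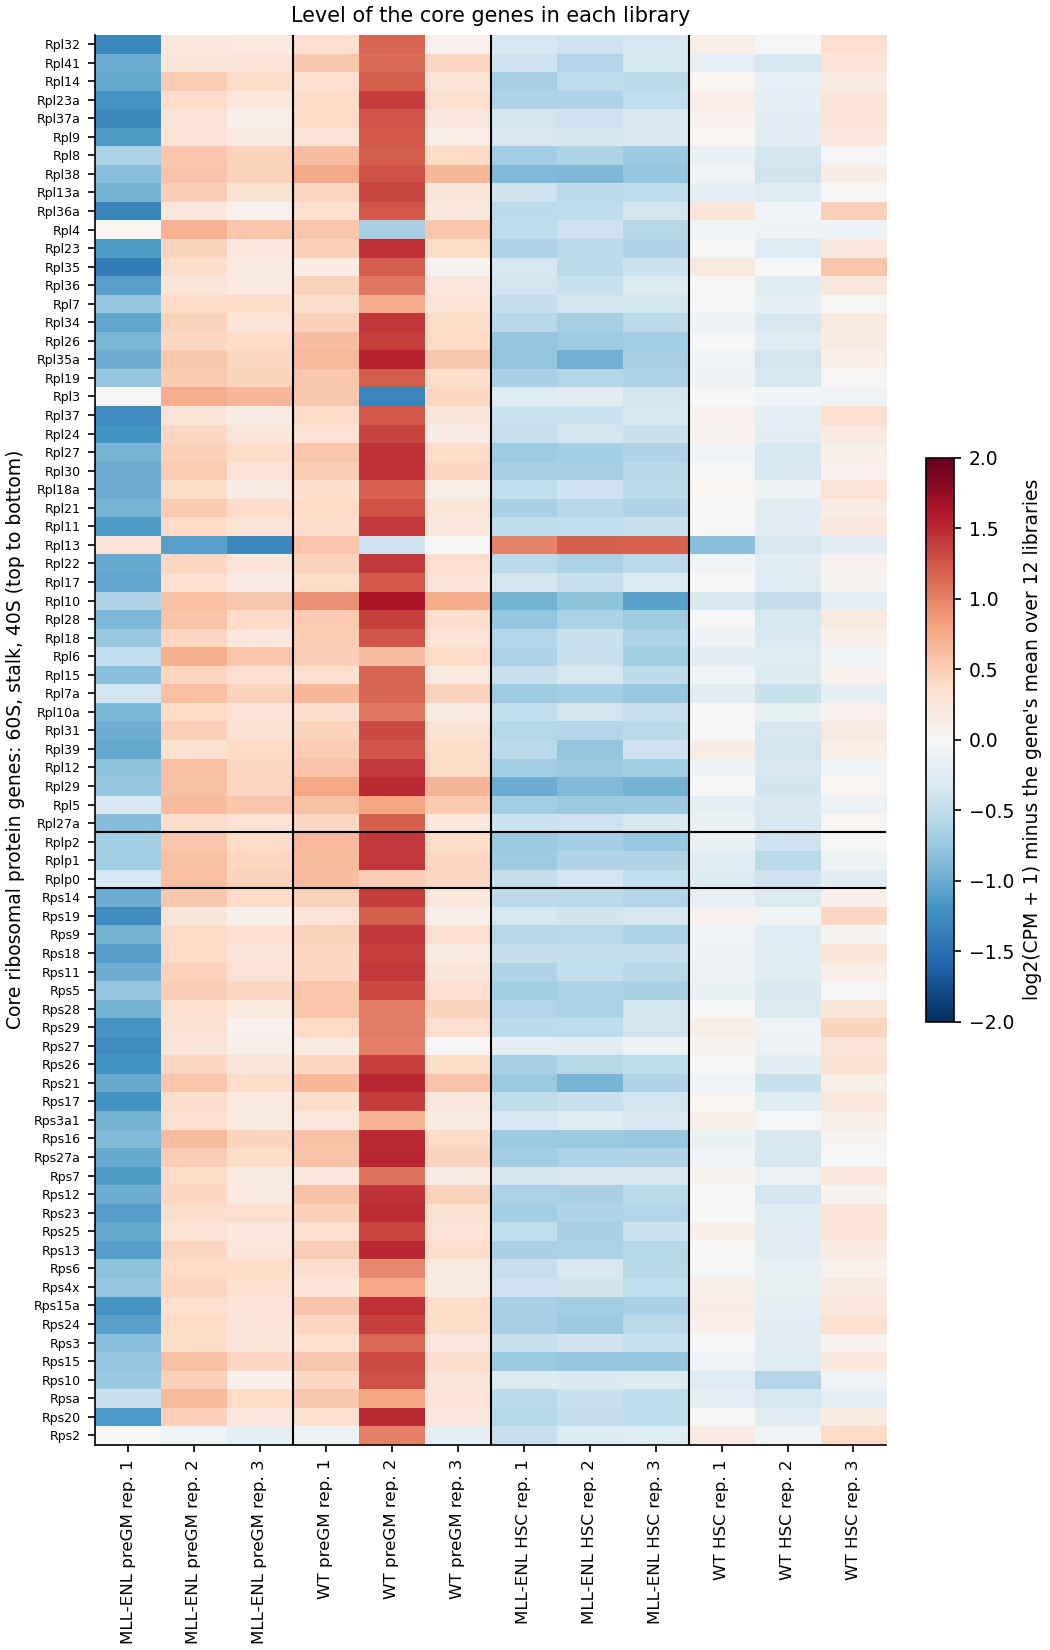
Level of 76 of the 77 core genes (rows, ordered within 60S, stalk and 40S by RPKM) in each of 12 libraries (columns), as log2(CPM + 1) minus the gene's mean over all libraries. Almost all rows are blue in MLL-ENL preGM replicate 1 and dark red in WT preGM replicate 2, pale blue in the 3 MLL-ENL HSC libraries, and Rpl13, Rpl3 and Rpl4 stand out as rows that run against the rest.

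Between cell types, ribosomal protein genes were higher in preGM than in HSC relative to the typical gene. As a share of all counts, preGM and HSC overlapped in WT. With MLL-ENL, preGM replicates 2 and 3 (16.5% and 15.9%) lay above all HSC libraries (14.3% to 14.6%), and replicate 1 (8.81%) lay below them. In WT the edgeR fit of 12 libraries called 21 of 85 genes higher in preGM (18.4% of all genes) and 0 lower (20.1%; 0 also at an unadjusted p under 0.05, and 0 by DESeq2 and limma voom, at 21.3% and 18.5% of all genes), with a median of 0.80 against -0.03 over all genes. In 62 of 85 genes the groups did not overlap, higher in preGM, against 23.6% of all genes, and in 0 were they lower, against 24.8%. With MLL-ENL, 12 of 85 were called higher (20.4% of all genes) and 1, Rpl13, lower (21.1%), with a median of 0.60, and 12 genes lay wholly higher (25.9% of all genes) and 1 wholly lower (28.9%). The count called was near the background in both comparisons, and the 2 outlying libraries bear on it: without them edgeR called 61 of 85 higher in WT (25.6% of all genes), with a median of 0.46, and 1, Rps2, lower (25.3%), and 79 of 85 higher with MLL-ENL (25.1%), with a median of 0.92, and 1, Rpl13, lower (26.5%). DESeq2 called 42 higher in WT (21.5% of all genes) and 24 with MLL-ENL (22.8%). Scaling moved all genes together. TMM factors were 0.62 to 1.06 in preGM and 1.12 to 1.35 in HSC, and with library size alone the median of all genes moved to -0.73 in WT and -0.56 with MLL-ENL, that of the members to 0.06 and -0.03 (0.79 and 0.52 above all genes, against 0.83 and 0.60 with TMM), and the calls to 2 higher and 0 lower in WT (7.57% and 39.1% of all genes) and 0 higher and 2 lower with MLL-ENL (7.75% and 35.1%). The difference of responses, with that scaling, was called lower in 0 members and 1.39% of all genes. The 571 other protein-coding genes with under 1000 exon bases had a median of 0.82 in WT and 0.44 with MLL-ENL, so in WT the median of the members was near that of other short genes.

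Leaving out single libraries also moved these counts. Leaving out MLL-ENL preGM replicate 1 gave 62 calls in WT in place of 21 (21.8% of all genes in that fit), and leaving out WT preGM replicate 2 gave 8 (19.8%). Replicates 1 and 3 of MLL-ENL HSC, each left out, gave 12 and 13 (16.6% and 16.5%), and replicates 1, 2 and 3 of WT HSC gave 8, 4 and 9 (14.5%, 14.2% and 15.1%). In place of the 12 calls with MLL-ENL there were 60 if MLL-ENL preGM replicate 1 was left out (20.3% of all genes), 25 if WT preGM replicate 2 was (22.7%), and 5 if replicate 2 or 3 of MLL-ENL preGM (17.6% and 16.8%) or replicate 1 or 3 of MLL-ENL HSC was (13.9% and 14%).

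**Figure D4:**
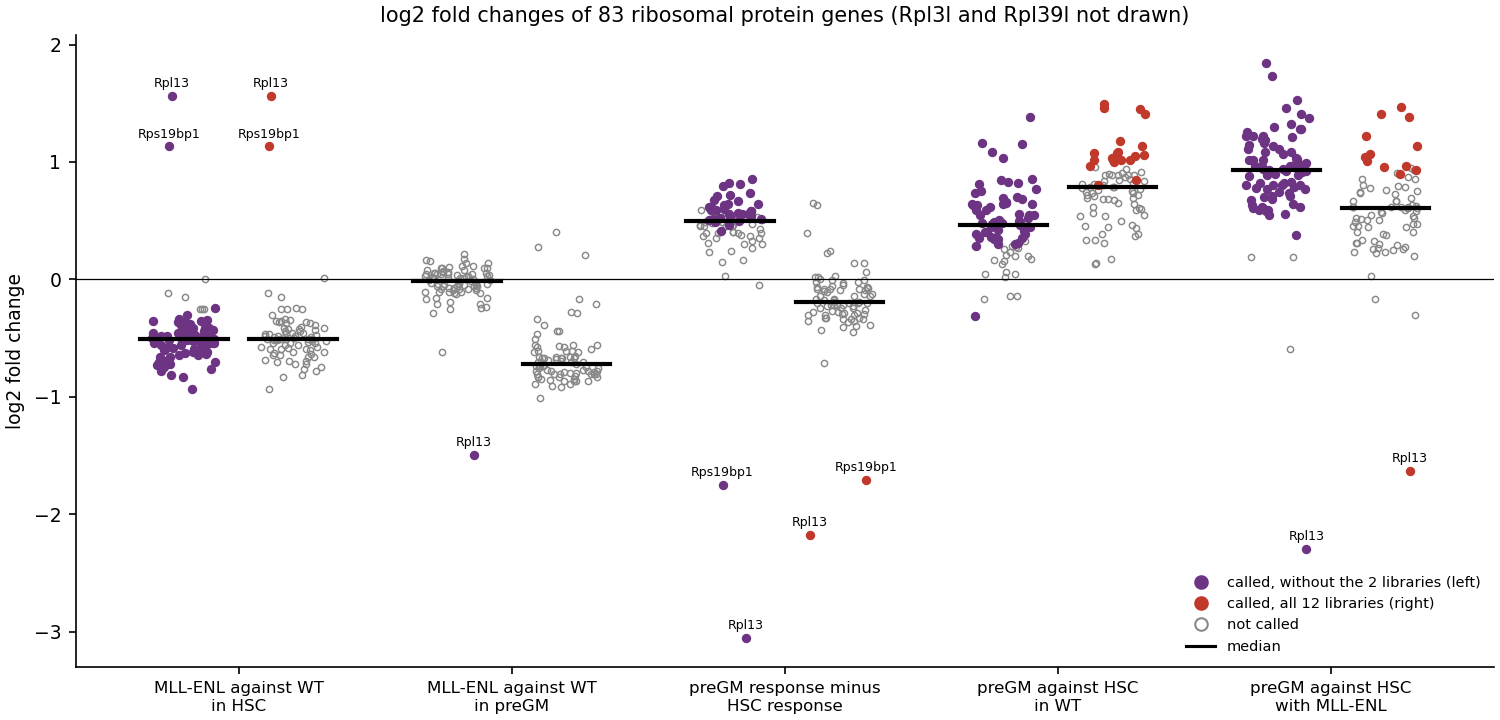
Log2 fold changes of 83 tested genes in the 5 comparisons, without the 2 outlying libraries (left cloud) and with all 12 (right cloud); filled points passed edgeR's adjusted p of 0.05 and lines are medians of the points drawn. The clouds for MLL-ENL against WT in HSC coincide at about -0.51, those for preGM shift from -0.73 with 12 libraries to -0.02 without the 2, and with library size alone the medians of the last 2 comparisons would lie at 0.06 and -0.03.

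Of the members called higher, 9 were called in both genotypes (9 of 21 in WT and 9 of 12 with MLL-ENL). Of all genes, 18.4% were called higher in WT and 20.4% with MLL-ENL. The share of all genes called in both was not computed, so this overlap cannot be read as a trait of the class. Rpl10, which joins the 60S subunit late and is mutated in human T-cell leukaemia, had 1967, 3207 and 1735 CPM in WT preGM, against 846, 746 and 916 CPM in WT HSC. Its log2 fold change in WT was 1.46 ± 0.35 (SE, edgeR adjusted p 0.00356), and with MLL-ENL it was 1.22 ± 0.34 (0.0100). All preGM libraries of either genotype except MLL-ENL preGM replicate 1, at 684 CPM, lay between 1514 and 3207 CPM, and no HSC library exceeded 916 CPM. Rpl29 had 1.14 ± 0.34 in WT and 1.14 ± 0.34 with MLL-ENL, and Rpl7a, a 60S protein of the exit tunnel side, 1.08 ± 0.30 and 1.01 ± 0.30. Rpl5 averaged 2002 ± 649 CPM (SD, n = 3) in MLL-ENL preGM and 956 ± 20.6 CPM (SD, n = 3) in MLL-ENL HSC, with a log2 fold change of 1.07 ± 0.29 (0.00861).

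All 3 stalk genes were called higher in WT preGM than in WT HSC (18.4% of all genes). With MLL-ENL 0 of the 3 were called higher (20.4% of all genes), at edgeR adjusted p of 0.0516 to 0.0631. Rplp1 had 2267, 3907 and 1967 CPM in WT preGM, against 1231, 1006 and 1359 CPM in WT HSC, and a log2 fold change of 1.18 ± 0.35 (edgeR adjusted p 0.0156). Rplp2 had 1.05 ± 0.36 and Rplp0 0.81 ± 0.30. Rplp0 was not highest in WT preGM replicate 2, with 5707, 5206 and 4951 CPM in WT preGM, against 3075, 2793 and 3207 CPM in WT HSC. Rps21, on the 40S subunit, rose by 1.09 ± 0.38 (0.0345), and Rpl38 by 1.02 ± 0.35 (0.0293). Among 18 Diamond-Blackfan anaemia genes 3 were called higher in WT (18.4% of all genes) and 1 with MLL-ENL (20.4%), and Rps19 had only 0.46 ± 0.39 in WT.

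Rpl3l was called higher in WT preGM from very few counts, 28, 49 and 31 in WT preGM, against 2, 0 and 0 in WT HSC, and no fold is given. In MLL-ENL preGM it had 15, 0 and 17 counts, against 0, 11 and 0 in MLL-ENL HSC. Rpl39l had at most 46 counts in any library. Rpl7l1 had 453, 437 and 451 CPM in MLL-ENL preGM, against 170, 163 and 171 CPM in MLL-ENL HSC, a log2 fold change of 1.41 ± 0.33 (edgeR adjusted p 0.00311). In WT it had 445, 164 and 495 CPM in preGM, against 194, 190 and 160 CPM in HSC, so that WT preGM replicate 2 alone fell among the HSC libraries.

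In 3 paralog pairs the ratio of paralog to parent separated all 6 preGM libraries from all 6 HSC libraries. Rpl7l1 over Rpl7 separated the cell types with MLL-ENL only, at 11.9%, 5.06% and 5.33% in preGM, against 3.61%, 3.26% and 3.37% in HSC. In WT it was 5.34%, 1.50% and 6.18% in preGM, against 3.02%, 3.29% and 2.43% in HSC. Each ratio is taken within 1 library and so does not depend on the scaling of libraries. Rps27l (chromosome 9, 66946086 to 66949516, plus strand) stood at 52.0%, 58.0% and 56.2% of the RPKM of Rps27 in MLL-ENL preGM, against 22.3%, 19.8% and 20.2% in MLL-ENL HSC. In WT it stood at 58.9%, 69.0% and 61.5% in preGM, against 29.5%, 28.5% and 31.5% in HSC. No preGM library came near any HSC library, and in HSC the MLL-ENL libraries were also all below the WT libraries (20.8 ± 1.35%, against 29.8 ± 1.51%, SD, n = 3 each).

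Rpl36al (chromosome 12, 69182731 to 69184083, minus strand) moved the same way against Rpl36a, with 30.7%, 30.6% and 30.2% in MLL-ENL preGM, against 14.6%, 12.7% and 14.2% in MLL-ENL HSC. In WT the ratio was 33.2%, 33.0% and 34.6% in preGM, against 16.4%, 17.5% and 16.1% in HSC. The spread within a group was under 1 percentage point in SD in all 4 groups, also in the groups with an outlying library.

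Rpl22l1 (chromosome 3, 28805436 to 28807424, plus strand) went the other way. Its parent Rpl22 is an RNA-binding protein that T-cell development in mice depends on, and that is known to repress Rpl22l1. The ratio was 41.0%, 49.0% and 47.6% in MLL-ENL preGM, against 61.7%, 58.4% and 66.9% in MLL-ENL HSC, and 43.5%, 52.3% and 48.3% in WT preGM, against 75.5%, 72.4% and 74.4% in WT HSC. All HSC libraries exceeded all preGM libraries, and the MLL-ENL HSC libraries were all below the WT HSC libraries. Rps27rt, the retrogene, differed less from Rps27, with means of 26.4 ± 0.297% in MLL-ENL preGM, 30.1 ± 3.38% in WT preGM, 30.3 ± 2.66% in MLL-ENL HSC and 35.0 ± 2.20% in WT HSC (SD, n = 3 each). An exact permutation test of 3 libraries against 3 has a smallest two-sided p of 0.1, so none of these ratios could pass 0.05 within a genotype. Of the 31-base words of the parents, 98.7% for Rps27, 88.3% for Rpl36a and 44.8% for Rpl22 also occur in other genes, against 29.6% for Rps27l, 64.7% for Rpl36al and 72.4% for Rpl22l1, so each ratio is uncertain where the authors' counting placed shared reads.

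**Figure D5:**
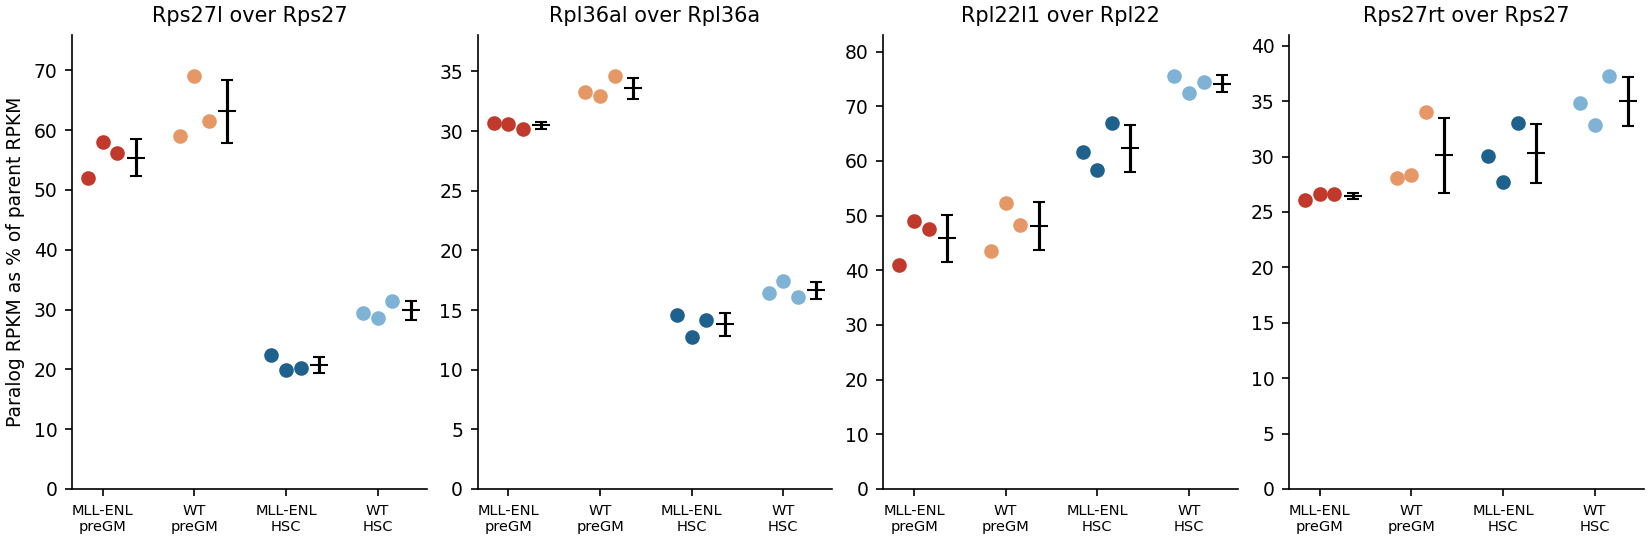
RPKM of 4 paralogs as a percentage of the RPKM of their parent gene in each library, by group, with mean ± SD of 3 libraries at the right of each group. Rps27l over Rps27 and Rpl36al over Rpl36a are higher in all 6 preGM libraries than in all 6 HSC libraries, Rpl22l1 over Rpl22 is lower in all 6, and Rps27rt over Rps27 overlaps between cell types.

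Of 3 ribosomal proteins that the symbol rule leaves out, 0 were called for MLL-ENL against WT in HSC, with a median of -0.38. Of all genes, 3.19% were called higher there and 0.929% lower. In WT preGM against WT HSC, 2 of the 3 were called higher (18.4% of all genes), with a median of 0.86. Fau, which encodes a ribosomal protein fused to a ubiquitin-like sequence, and Rack1, a scaffold on the 40S subunit, had log2 fold changes of -0.38 ± 0.37 and -0.33 ± 0.29 for MLL-ENL against WT in HSC, and 1.22 ± 0.38 and 0.86 ± 0.29 for preGM against HSC in WT, where edgeR called both (adjusted p 0.0177 for Fau and 0.0277 for Rack1). Mitochondrial ribosomal protein genes, which encode the separate ribosome of mitochondria, had a median of -0.42 for MLL-ENL against WT in HSC over 78 genes. The edgeR fit of 12 libraries called 0 of them, where 3.19% of all genes were called higher and 0.929% lower. Without the 2 outlying libraries 49 of 78 were called lower (11.1% of all genes) and 2 higher (10.2%). In WT preGM against HSC, 58 of 78 were called higher (18.4% of all genes), with a median of 1.04, against 21 of 85 cytosolic genes. That cytosolic count became 61 without the 2 outlying libraries (25.6% of all genes) and 4 to 62 when 1 library was left out (14.2% to 21.8%).

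Some factors that build ribosomes fell in MLL-ENL HSC as well. Of 40 ribosome assembly factors, 6 were called lower (0.929% of all genes) and 0 higher (3.19%) in the edgeR fit of 12 libraries, with a median of -0.50. Without the 2 outlying libraries 26 were called lower (11.1% of all genes). Nucleolin (Ncl), the main nucleolar protein, averaged 578 ± 77.5 CPM in MLL-ENL HSC and 1163 ± 33.0 CPM in WT HSC (SD, n = 3 each), with a log2 fold change of -1.01 ± 0.26 (adjusted p 0.0385). Noc3l, Rrs1 and Utp20, which act in processing of pre-ribosomes, had -1.21 ± 0.32, -1.10 ± 0.30 and -0.95 ± 0.23. In preGM against HSC, 18 of 40 were called higher in WT (18.4% of all genes) and 38 of 40 with MLL-ENL (20.4%), with medians of 0.79 and 1.46. Mrto4, a 60S assembly factor, had 1.78 ± 0.26 in WT and 2.28 ± 0.26 with MLL-ENL, and Nhp2, of the box H/ACA particles, 1.80 ± 0.34 and 2.15 ± 0.34. With MLL-ENL the assembly factors thus had a larger median than the ribosomal proteins (0.60), a difference that was not tested.

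Of 15 genes of RNA polymerase I and its factors, 0 were called for MLL-ENL against WT in HSC and in preGM by edgeR. Of all genes, 3.19% were called higher and 0.929% lower in HSC, and 3.7% and 3.07% in preGM. In preGM against HSC, 4 were called higher in WT (18.4% of all genes) and 9 with MLL-ENL (20.4%), among them Cd3eap (1.20 ± 0.25 and 1.41 ± 0.25). Of 14 translation factors with TOP mRNAs, 2 were called higher in preGM than HSC in WT, Npm1 and Eef1d (18.4% of all genes), and 3 with MLL-ENL (20.4%). The median of the 14 for MLL-ENL against WT in HSC was -0.30. Eef1d, a subunit of the exchange factor of elongation factor 1, had 1.33 ± 0.30 in WT and 1.69 ± 0.30 with MLL-ENL.

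Among 14 tested genes of mTORC1 and TOP mRNA control, Akt1s1, which encodes the mTORC1 inhibitor PRAS40, was called higher in MLL-ENL HSC, at 7.16 ± 1.60 CPM, against 0.991 ± 0.421 CPM in WT HSC (SD, n = 3 each), a log2 fold change of 2.86 ± 0.46 (edgeR adjusted p 0.00218). In preGM it averaged 0.953 ± 0.281 CPM with MLL-ENL and 1.52 ± 0.668 CPM in WT. Deptor, another mTORC1 inhibitor, was called higher in MLL-ENL preGM than in WT preGM (1.05 ± 0.25, edgeR adjusted p 0.0180), and without the 2 outlying libraries it was not (0.70 ± 0.21, adjusted p 0.0608). For WT preGM against WT HSC, 2 of the 14 were called higher (18.4% of all genes) and 3 lower (20.1%), which is near the background. Among the 14, Eif4ebp1 and Eif4ebp2, repressors of cap-dependent translation, were higher in WT preGM (1.11 ± 0.34 and 1.30 ± 0.39). Tsc1 and Tsc2, which restrain mTORC1, were lower (-0.83 ± 0.23 and -0.72 ± 0.23).

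Of 9 tested genes of the MYC network, Myc itself averaged 247 ± 156 CPM (SD, n = 3) in MLL-ENL preGM and 87.3 ± 2.71 CPM (SD, n = 3) in MLL-ENL HSC. The log2 fold change was 1.50 ± 0.38 (edgeR adjusted p 0.00536). The MLL-ENL preGM libraries differed widely in Myc, and its values without the 2 outlying libraries are not given here. Myc averaged 104 ± 42.9 CPM in WT preGM and 114 ± 20.4 CPM in WT HSC. For MLL-ENL against WT, Myc had -0.38 ± 0.37 in HSC and 1.25 ± 0.38 in preGM (adjusted p 0.0595), neither of them called. In that comparison in preGM, 1 of the 9 was called higher (3.7% of all genes) and 1 lower (3.07%). Mycn averaged 2.58 ± 0.198 CPM in MLL-ENL preGM and 1.13 ± 0.591 CPM in WT preGM (SD, n = 3 each), a log2 fold change of 1.21 ± 0.33 (edgeR adjusted p 0.0366, and 0.0208 without the 2 outlying libraries). Mxd3, a MAX partner that antagonises MYC, averaged 23.6 ± 6.43 CPM and 45.2 ± 2.72 CPM in the same groups (-0.94 ± 0.25, adjusted p 0.0297), and was not called without those libraries (0.0614). Mycn was lower in preGM than in HSC in both genotypes (-5.93 ± 0.37 in WT and -4.34 ± 0.33 with MLL-ENL). Of the 4 genes of the Mdm2 and p53 surveillance list, 0 were called for MLL-ENL against WT in HSC, where their median was -0.09. In that comparison 3.19% of all genes were called higher and 0.929% lower. Cdkn1a, the p53 target encoding p21, was lower in MLL-ENL preGM than in WT preGM (-1.17 ± 0.32, edgeR adjusted p 0.0401). Without the 2 outlying libraries Cdkn1a was not called (-0.59 ± 0.26, adjusted p 0.237).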

How the data were processed

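The authors deposited, per the file headers, a raw read count and an RPKM value for each exon, intron and transcript of each library. The deposited counts are not normalized, and the authors computed RPKM from them by feature length and library size. The submitters' processing notes name edgeR, HTSeq, Bowtie2 2.1.0 and TopHat2 2.0.8 with no role for each; a genome build was not found in the sources. The labels' protocols name an RNeasy micro kit for extraction and the SMARTer universal kit for low input. Transcripts (95.8% matched by identifier to GENCODE M21, GRCm38) repeat reads, so counts were summed per gene over the non-overlapping exons with most bases. Coordinates are GRCm38, from 1.

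Genes passing filterByExpr (minimum count 10, total 15; 15711 genes) were tested with edgeR 4.0.16 in R 4.3.3 (quasi-likelihood, robust, TMM, all 12 libraries, 5 comparisons), with Benjamini-Hochberg adjustment over all of them and a threshold of 0.05. CPM is scaled by TMM, except for sums over marker and RNA quality lists, which are scaled by library size alone. SE was back-calculated from the fold change and the F statistic. Alternatives were DESeq2 1.42.0, limma 3.58.1 voom, other scalings, filters, gene counts and sets of libraries. Groups and replicate numbers came from titles. Counting without strand and copies elsewhere limit single genes: the median member had 64.5% of its 31-base words in other genes, and Rps25, Rpl23a, Rpl5, Rpl35, Rpl31 and Rpl24 were among those that shared at least 10% of exon bases with another gene. Results of some genes are not reported here.

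Members, gene lists and the 2 outlying libraries were chosen with earlier results of these data known. Genes named are, per comparison, up to 8 called members a direction by size of change, the 3 highest and 3 lowest by RPKM, paralogs, stalk genes, Rpsa, Rpl5, Rpl11, Rps19, Rps14 and Rpl22, and up to 4 called genes a list; Rpl3, Rpl4, Rps2, Rps10, Rpl35 and Rps27 were named after their values were seen. Level per length is the deposited RPKM of the principal coding transcript.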

Additional observations from a re-analysis of the deposited data

Results flagged for a closer look

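Rpl13 differed between cell types in its response to MLL-ENL by the test of the difference itself. The preGM response minus the HSC response was -2.18 on the log2 scale (SE 0.56, edgeR adjusted p 0.0445), with 1210, 466 and 405 CPM in MLL-ENL preGM and 1461, 741 and 987 CPM in WT preGM, and 1957, 2264 and 2240 CPM in MLL-ENL HSC and 552, 782 and 853 CPM in WT HSC. In HSC the ratio of MLL-ENL to WT means was 5.32 in exon 2 and 5.38 in exon 3, against 1.97 in the last exon. Single exons were not compared for the difference of responses, and the cause was not tested. Rps19bp1 differed in the same way by -1.71 (SE 0.43, edgeR adjusted p 0.0385), at levels of 9.85 to 26.8 CPM in preGM and 6.30 to 21.5 CPM in HSC. Both calls depended on single libraries: of 12 fits that left out 1 library each, edgeR called Rpl13 in 2 (adjusted p 0.0014 to 0.137) and Rps19bp1 in 3 (0.0124 to 0.127), and with library size alone it called neither (0.145 and 0.127).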

How the results depend on the processing

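Counts of genes called changed with the libraries and tools more than the medians did in HSC. DESeq2 called 2 lower for MLL-ENL against WT in preGM, and for preGM against HSC 42 higher in WT and 24 with MLL-ENL. TMM factors without the members, limma voom, the longest transcript and added pseudogene counts each left 1 gene higher in MLL-ENL HSC; voom also called 1 lower for MLL-ENL in preGM and 1 lower for the difference of responses. Library size alone called 0 lower for that difference, 2 higher in WT preGM against HSC, and 0 higher and 2 lower with MLL-ENL. The groups compared alone gave 70 lower in HSC and no value for the difference of responses. Without both outlying libraries the calls were 75 lower in HSC, 1 lower in preGM, 34 higher for the difference, 61 higher and 1 lower (Rps2) for preGM against HSC in WT and 79 higher with MLL-ENL. Leaving out 1 library gave, with the shares of all genes in brackets, 0 to 2 higher (1.55% to 5.06%) and 0 to 3 lower (0.338% to 2.97%) in HSC. In preGM it gave 0 higher (1.66% to 5.57%) and 0 to 1 lower (1.88% to 3.08%). For the difference it gave 0 higher (0.563% to 1.57%) and 0 to 2 lower (1.29% to 2.78%). For preGM against HSC it gave 4 to 62 higher (14.2% to 21.8%) and 0 lower (14.4% to 22.7%) in WT. With MLL-ENL it gave 5 to 60 higher (13.9% to 22.7%) and 1 to 2 lower (16.1% to 22.9%). The principal coding transcript, chosen after seeing the data, and no filter on low counts kept all 10 counts within 1.5 times.

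Deviations of same-numbered libraries from their group means correlated between -0.10 and 0.10. With 3 libraries a group, 2 of them outlying, this cannot show whether same-numbered samples were prepared together, and the labels do not say. With the replicate block, 0 genes were higher in MLL-ENL HSC (2.55% of all genes), 1 lower for the difference of responses (1.74%) and 13 higher in WT preGM against HSC (16.7%). Over all 85 members, library size alone gave 50 positive and 35 negative values for preGM against HSC in WT (85 and 0 with TMM) and 33 and 52 with MLL-ENL (81 and 4). Without both outlying libraries there were 39 and 46 for MLL-ENL against WT in preGM (3 and 82 with 12 libraries), 80 and 5 for the difference of responses (11 and 74) and 81 and 4 for preGM against HSC in WT. Among the uncalled values given for named members in the report, those that changed sign included, with library size alone, Rpl7l1 (0.076) and Rplp0 (0.041) in HSC and Rpl22l1 (-0.37), Rpl32 (-0.29), Rps19 (-0.28) and Rps27rt (-0.59) in WT preGM against HSC. Without both outlying libraries, Rpl22l1 (-0.14) and Rps27rt (-0.17) did so. Leaving out 1 library gave -0.14 to 0.60 for Rpl22l1 and -0.17 to 0.31 for Rps27rt, lowest without WT preGM replicate 2. The cause was not tested. Depth limits Rpl3l, Rpl39l and Rpl10l, with at most 49 counts in a library.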
